A study of Mus musculus with 36 samples.

Results

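The comparison described here set the hypothalamus of NZO/HlLtJ mice against that of CAST/EiJ mice, all fed the high fat, high sugar (HFHS) diet, across every gene of the deposited count matrix. Libraries were chosen by their titles, which give the strain and a diet of 44% fat with fiber: 6 NZO libraries (3 from females, 3 from males) and 6 CAST libraries (3 from females, 3 from males), 12 of 36 libraries in all. All mice were wild type by their labels, went on the diet at 6 weeks of age and were collected at 15 weeks. The other libraries used beside them came from the same strains on the control diet with 10% fat and fiber (6 NZO and 6 CAST libraries, 3 of each sex) and from C57BL/6J mice on HFHS (6 libraries, 3 of each sex). C57BL/6J mice on the control diet (6 libraries, 3 of each sex) entered only the fit, which took its filter, scaling and spread from all 36 libraries. The labels name samples without saying whether each came from its own animal, so the p-values measure the spread between these samples.

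NZO is an inbred strain with polygenic obesity and a liability to diabetes, and CAST is an inbred strain derived from wild Mus musculus castaneus mice. C57BL/6J is the laboratory strain whose genome is the mouse reference. The hypothalamus holds the neurons that set feeding and energy use, such as the Agrp and Pomc neurons of the arcuate nucleus, together with astrocytes, oligodendrocytes, microglia, vessels and the ventricle's lining of ependymal cells and tanycytes. Interferon acts through the receptors' STAT and IRF factors, which bind the interferon-stimulated response element and switch on antiviral and antigen presentation genes. In reactive gliosis astrocytes raise their filament protein Gfap and a set of secreted proteins.

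Library totals were 32704363 to 46278440 reads in NZO and 27513871 to 44290315 reads in CAST. Mitochondrially encoded genes took 4.09% to 5.28% of the reads in NZO and 4.83% to 5.42% in CAST. Levels are given in CPM, a gene's count per fixed number of reads of the effective library size. The log2 change is NZO over CAST with the sexes weighted equally, ± its standard error (SE), and a gene was called at a Benjamini-Hochberg adjusted p under 0.05 in edgeR's quasi-likelihood test. Counts are the authors' estimated counts, rounded. The hypothalamic regulators Nkx2-1 and Sim1 were detected in every library and neither was called. Nkx2-1 had 24.96 to 38.0 CPM, median 31.8, in NZO against 20.9 to 34.6 CPM, median 26.3, in CAST (adjusted p = 0.087). Sim1 had 15.2 to 27.7 CPM, median 22.1, in NZO against 22.5 to 28.3 CPM, median 24.2, in CAST (adjusted p = 0.264). Libraries stood apart in a few genes. CAST HFHS male 1 had the most Hcrt and Pmch RNA of the 12 libraries, and CAST HFHS female 3 the most Prl and Gh RNA, the pituitary's prolactin and growth hormone. The Y-linked gene Ddx3y had 2.58 CPM in NZO HFHS female 3, 0 in the other females and 80.4 to 104 CPM in males. Among genes far higher in CAST, NZO female 3 had the highest NZO level of Tuba1c, Cml2, Eno1b, Tspan10 and Kcnmb3, but not of Fggy, Tceanc2, Rpl17, Rpl9 or Rps12. Whether it holds RNA of another sample was not tested. Taken against the mean of the strain's own libraries, some levels changed with transcript length. On the control diet the slope was -0.143 log2 units per doubling in CAST female 1 and -0.0699 in CAST female 3. The other 22 libraries of both strains lay between -0.048 and 0.049. The log2 change of NZO against CAST on HFHS itself had a slope of -0.0599 per doubling over 19962 genes. The part of transcript length in the values of the lists below was not tested.

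Of 20053 genes tested, 8646 (43.1%) were called on HFHS, 4430 (22.1%) higher in NZO and 4216 (21%) lower. At least 2-fold changes among them numbered 2501 (12.5%), with 1602 (7.99%) higher in NZO and 899 (4.48%) lower. The median log2 change over all tested genes was -0.0014. In 5829 genes (29.1%) the 6 NZO libraries and the 6 CAST libraries did not overlap in CPM. The counts of the lists below are to be read against these shares. Among genes changed at least 2-fold, C57BL/6J on HFHS lay nearer NZO than CAST in 1286 of the 1602 genes higher in NZO (80.3%) and in 698 of the 899 lower in NZO (77.6%). Pseudogenes passed both the test and 2-fold in 38% of those tested, long non-coding genes in 25.5% and protein-coding genes in 8.77%. Genes with over 50% of their transcript sequence shared with another gene did so in 40.6%, and genes with at most 5% shared in 10.2%. The part of read placement in these shares was not tested.

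**Figure D1:**
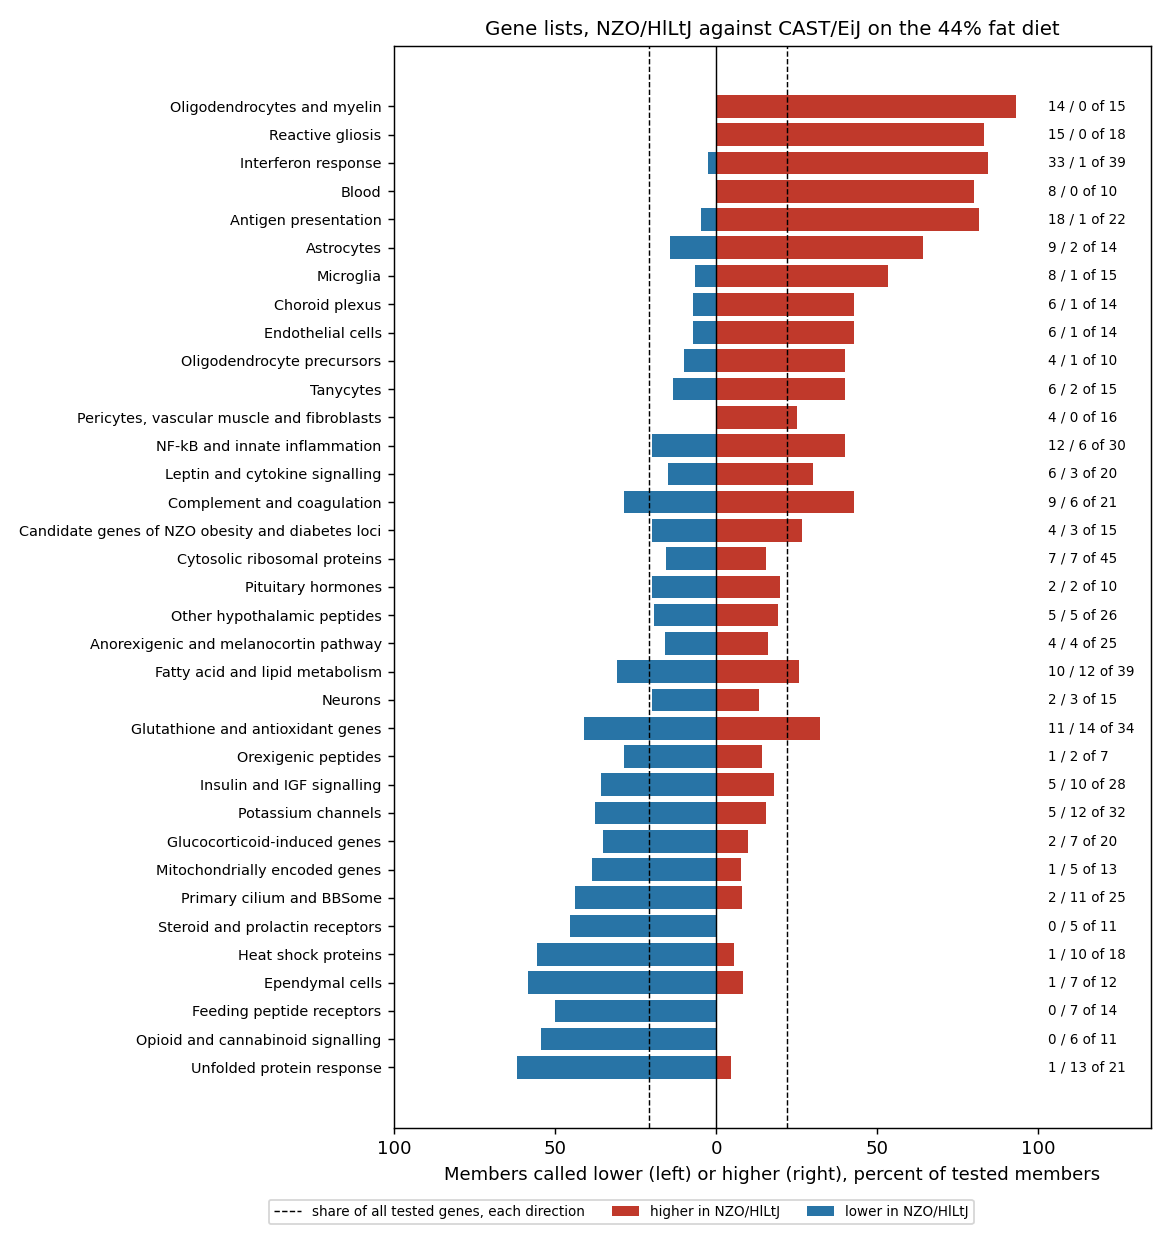
Share of each list's tested members called higher (right, red) or lower (left, blue) in NZO than in CAST on HFHS, in percent, with the number higher, lower and tested at the right. Dashed lines mark the share of all tested genes in each direction (22.1% higher, 21% lower). The lists for myelin, gliosis, interferon response, blood and antigen presentation have the longest right bars, and those for the unfolded protein response, ependymal cells and heat shock proteins have the longest left bars.

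The interferon response genes were higher in NZO as a group. Of 39 tested members, 33 were higher and 1 was lower, with a median log2 change of 1.59, against -0.0014 over all genes. The list summed to 266 to 332 CPM in NZO, 149 to 165 CPM in CAST and 226 to 291 CPM in C57BL/6J. Of the 18 members with at most 5% of their sequence shared with other genes, 17 were higher, with a median of 1.37. Markers of microglia and of blood, whose counts are given further on, were also higher in NZO, and their part in the interferon values was not tested. The promoters of 3 members show the letters through which the pathway is known to act. They come from RefSeq (GRCm38.p6), which is C57BL/6J sequence and not that of either strain, and run from 250 bases before to 50 after the start of the gene, on the gene's strand. Capitals mark the interferon-stimulated response element on either strand, searched as GAAA, any 2 bases, and GAAA.
Ifit1 (chr19:34640639-34640938, plus strand): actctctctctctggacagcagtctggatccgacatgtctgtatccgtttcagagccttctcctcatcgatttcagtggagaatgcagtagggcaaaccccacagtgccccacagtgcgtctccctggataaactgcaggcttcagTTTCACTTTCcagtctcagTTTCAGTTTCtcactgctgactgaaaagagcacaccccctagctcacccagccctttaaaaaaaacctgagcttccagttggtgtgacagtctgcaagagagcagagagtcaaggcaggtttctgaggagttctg
Isg15 (chr4:156200769-156201068, minus strand): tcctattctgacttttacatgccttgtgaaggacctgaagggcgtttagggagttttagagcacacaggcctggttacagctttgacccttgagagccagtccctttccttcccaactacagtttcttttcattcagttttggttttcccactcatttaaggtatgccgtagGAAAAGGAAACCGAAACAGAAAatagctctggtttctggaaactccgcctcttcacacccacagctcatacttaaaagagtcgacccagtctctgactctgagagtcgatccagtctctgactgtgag
Irgm1 (chr11:48871371-48871670, minus strand): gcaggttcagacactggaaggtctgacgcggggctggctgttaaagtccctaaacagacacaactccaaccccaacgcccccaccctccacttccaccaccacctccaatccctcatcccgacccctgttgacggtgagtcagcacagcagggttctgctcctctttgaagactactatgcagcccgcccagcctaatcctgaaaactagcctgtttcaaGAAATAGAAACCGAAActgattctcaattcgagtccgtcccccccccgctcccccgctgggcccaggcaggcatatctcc
Such a match stood in 18 of the 27 tested members with a promoter entry (66.7%), against 3.7% of all 13010 tested genes with an entry. It describes the letters in these windows only.

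Ifit1, a protein that binds foreign viral RNA, ranged over 3.98 to 6.60 CPM, median 4.58, in NZO and over 0.508 to 1.31 CPM, median 0.919, in CAST (log2 change 2.47 ± 0.22, adjusted p = 9.10e-11). Isg15, a ubiquitin-like modifier, had 0.596 to 1.65 CPM, median 1.02, in NZO against 0.140 to 0.400 CPM, median 0.270, in CAST (log2 change 2.06 ± 0.33, adjusted p = 5.24e-06). Irgm1, a GTPase of cell-autonomous immunity, had 11.3 to 12.9 CPM, median 12.5, in NZO against 3.92 to 5.02 CPM, median 4.30, in CAST (log2 change 1.49 ± 0.10, adjusted p = 2.38e-13). For all 3 genes every NZO library lay above every CAST library. Oasl2, a relative of the 2'-5' oligoadenylate synthetases, had 10.8 to 12.9 CPM, median 11.7, in NZO and 0.772 to 1.23 CPM, median 0.982, in CAST (log2 change 3.58 ± 0.17, adjusted p = 4.61e-17). Sp100, a nuclear body protein, had 3.65 to 5.43 CPM, median 4.58, in NZO and 0.654 to 1.09 CPM, median 0.752, in CAST (log2 change 2.48 ± 0.18, adjusted p = 6.91e-13). Neither gene's libraries overlapped between the strains. Ifit3b, a near copy of Ifit3, had 9.24 to 12.3 CPM, median 10.9, in NZO and 0.545 to 1.42 CPM, median 0.974, in CAST (log2 change 3.59 ± 0.16, adjusted p = 5.92e-18). Ifit3b and Ifit3 summed were 19.8 ± 1.65 CPM in NZO and 2.90 ± 0.797 CPM in CAST (mean ± SD, log2 difference 2.82, exact permutation test over the 12 libraries, two-sided p = 0.00216, the smallest that 6 against 6 allows). Ifit3b was named for its difference in these libraries, so this p is not independent support.

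The transcription factors of the pathway differed in size. Irf7, the inducible amplifier of interferon production, had 1.99 to 3.67 CPM, median 3.16, in NZO against 0.472 to 1.17 CPM, median 0.638, in CAST (log2 change 2.14 ± 0.20, adjusted p = 5.36e-10). No NZO library overlapped a CAST library in it. Stat2 and Irf9, parts of the factor that binds the response element, were also higher (log2 change 0.35 ± 0.060, adjusted p = 2.01e-05 for Stat2, and 0.29 ± 0.082, adjusted p = 0.00522 for Irf9). Among the RNA sensors, Ifih1 was higher (1.15 ± 0.11, adjusted p = 8.82e-10) and Ddx58 was higher (0.65 ± 0.089, adjusted p = 5.79e-07). Iigp1, an interferon-inducible GTPase named here after its value was seen, was nearly absent in CAST, with 510 counts over the 6 NZO libraries against 1 over the 6 CAST libraries. The ratio of its CPM was 482, with an exact interval of 86.1 to 19068 that covers counting error only. Mx2, an antiviral GTPase annotated as a polymorphic pseudogene, was the one member lower in NZO, with 0.0568 to 0.699 CPM, median 0.318, in NZO against 5.16 to 6.39 CPM, median 6.01, in CAST (log2 change -3.92 ± 0.29, adjusted p = 1.73e-12). Its neighbour Mx1 was higher (log2 change 1.88 ± 0.28, adjusted p = 2.13e-06). Of the 5 members not called, Xaf1, Ifi203, Oas1b and Gbp3 had log2 changes of -0.26, -0.13, 0.014 and 0.049, and Ifi204 had 0.74.

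Genes of antigen presentation were higher in 18 of 22 tested members and lower in 1, with a median log2 change of 0.93. H2-D1, a classical class I molecule, had 54.6 to 66.6 CPM, median 61.6, in NZO against 5.28 to 6.91 CPM, median 5.77, in CAST (log2 change 3.34 ± 0.11, adjusted p = 1.28e-21). B2m, the light chain of class I, had 59.4 to 83.7 CPM, median 67.8, in NZO against 44.3 to 51.5 CPM, median 47.9, in CAST (log2 change 0.52 ± 0.087, adjusted p = 1.27e-05). Both genes separated the strains in every library. Psmb8, a subunit of the immunoproteasome, had 4.74 to 6.48 CPM, median 5.54, in NZO against 1.40 to 1.76 CPM, median 1.54, in CAST (log2 change 1.81 ± 0.13, adjusted p = 1.93e-12). Nlrc5, the transactivator of class I genes, had 2.96 to 5.11 CPM, median 4.12, in NZO against 0.726 to 1.19 CPM, median 0.975, in CAST (log2 change 2.05 ± 0.18, adjusted p = 4.79e-11). Cd74, the chaperone of class II molecules, had 10.6 to 16.9 CPM, median 13.5, in NZO against 2.06 to 2.74 CPM, median 2.54, in CAST (log2 change 2.46 ± 0.35, adjusted p = 1.15e-06). Again no NZO library overlapped a CAST library. The class II chains H2-Aa and H2-Eb1 were higher (2.39 ± 0.41, adjusted p = 2.08e-05 and 2.13 ± 0.32, adjusted p = 2.39e-06), while H2-Ab1 had a log2 change of -0.25 ± 0.28, adjusted p = 0.502. H2-Q7, a class I molecule of the Q region, was the one member lower, with 0.561 to 1.16 CPM, median 0.897, in NZO against 3.75 to 4.59 CPM, median 4.20, in CAST (log2 change -2.26 ± 0.24, adjusted p = 4.10e-09). H2-T22, a non-classical class I gene with 51.0% shared sequence, had 21.6 to 23.1 CPM, median 22.3, in NZO against 12.04 to 15.1 CPM, median 12.8, in CAST (log2 change 0.78 ± 0.067, adjusted p = 4.94e-11). Class I genes differ between strains in sequence and share stretches with each other, so the placement of reads among them is uncertain, and H2-D1 shares 26.7% of its sequence. Among 14 members with at most 5% shared sequence, 12 were higher and 0 lower.

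**Figure D2:**
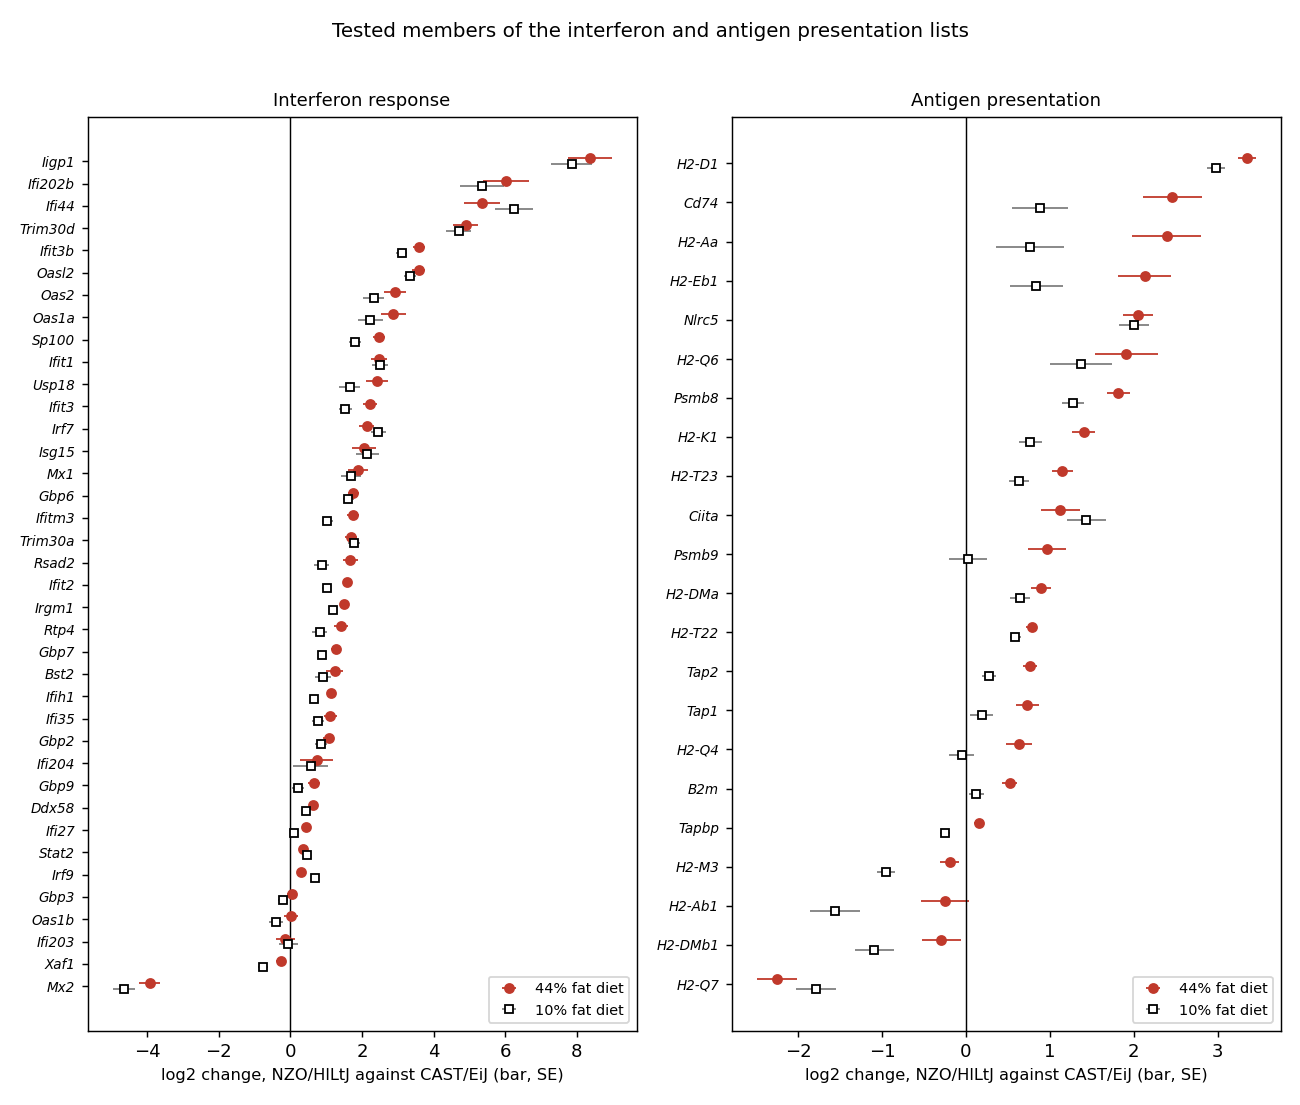
Log2 change of NZO against CAST for tested members of the interferon response (left panel) and antigen presentation (right panel) lists, 1 interferon member being left out, with SE bars, on HFHS (filled circles) and on the control diet (open squares). Points right of the 0 line are higher in NZO: 33 of 39 interferon members were called higher on HFHS, and Mx2 and H2-Q7 stand at the lower end of their panels on both diets.

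Markers of reactive gliosis were higher in NZO in 15 of 18 tested members and lower in 0, with a median log2 change of 0.88. Gfap, the astrocyte filament protein (chromosome 11, 102887336 to 102900912 on GRCm38), had 760.1 to 1196 CPM, median 951, in NZO against 147 to 239 CPM, median 201, in CAST (log2 change 2.26 ± 0.19, adjusted p = 2.43e-11). Every NZO library lay above every CAST library and above every C57BL/6J library, which had 254 to 339 CPM, median 298. Within NZO the females were above the males, at 1092 to 1196 CPM in females and 760.1 to 809.6 CPM in males, while CAST females had 178 to 239 CPM and CAST males 147 to 218 CPM. The strain difference in females less that in males was 0.47 ± 0.36, adjusted p = 0.808, and was not called. Serpina3n, a secreted protease inhibitor of reactive astrocytes, had 90.2 to 191 CPM, median 130.4, in NZO against 56.7 to 64.9 CPM, median 59.9, in CAST (log2 change 1.12 ± 0.11, adjusted p = 6.90e-10). Here too NZO females were higher, at 146 to 191 CPM against 90.2 to 115 CPM in NZO males (sex difference of the strain contrast 0.75 ± 0.21, adjusted p = 0.775). Aspg, an asparaginase of reactive astrocytes, had 10.97 to 18.2 CPM, median 14.9, in NZO against 1.62 to 2.03 CPM, median 1.79, in CAST (log2 change 3.02 ± 0.19, adjusted p = 2.73e-14). Osmr, the receptor of oncostatin M, had 9.21 to 13.5 CPM, median 11.7, in NZO against 2.35 to 4.001 CPM, median 3.30, in CAST (log2 change 1.86 ± 0.17, adjusted p = 1.70e-10). Cd44, a hyaluronan receptor, had 22.8 to 36.2 CPM, median 26.8, in NZO against 9.73 to 19.5 CPM, median 16.1, in CAST (log2 change 0.88 ± 0.17, adjusted p = 7.30e-05). In these 5 genes no NZO library overlapped a CAST library. Vim, the second glial filament protein, changed less (0.33 ± 0.092, adjusted p = 0.00442), and Hspb1, Lcn2 and Ugt1a6a were not called (log2 change -0.46, 0.80 and 0.89).

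General astrocyte markers moved less than the reactive ones: 9 of 14 were higher and 2 lower, with a median log2 change of 0.26. Gfap stands in both lists and has the highest log2 change of the astrocyte list. Aqp4, the water channel of astrocyte endfeet, had 199 to 317 CPM, median 208, in NZO against 139 to 166 CPM, median 151, in CAST (log2 change 0.58 ± 0.13, adjusted p = 5.28e-04). Aldh1l1, a folate enzyme used as a pan-astrocyte marker, had 64.6 to 77.7 CPM, median 67.4, in NZO against 37.0 to 47.7 CPM, median 40.8, in CAST (log2 change 0.74 ± 0.053, adjusted p = 7.58e-13). Aldoc, the astrocyte aldolase, had 808 to 933 CPM, median 828, in NZO against 616 to 733 CPM, median 652, in CAST (log2 change 0.37 ± 0.061, adjusted p = 8.24e-06). None of the 3 overlapped between the strains. Gjb6, the gap junction protein connexin 30, went the other way with 69.2 to 76.4 CPM, median 72.0, in NZO against 96.5 to 116 CPM, median 106, in CAST (log2 change -0.56 ± 0.088, adjusted p = 4.78e-06). Fabp7, a fatty acid binding protein of astrocytes and precursors, had 30.9 to 36.3 CPM, median 34.0, in NZO against 28.1 to 75.3 CPM, median 58.9, in CAST (log2 change -0.63 ± 0.18, adjusted p = 0.00484), and its CAST libraries spread across the NZO range. In bulk tissue, more cells of a type and more RNA per cell cannot be told apart, and this holds for every cell type list given here.

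Complement genes split, with 9 of 21 higher and 6 lower (median 0.20). C4b, the classical pathway's component 4, had 357 to 474 CPM, median 411, in NZO against 93.7 to 129 CPM, median 110.2, in CAST (log2 change 1.88 ± 0.095, adjusted p = 1.67e-16), and 77.4 to 86.8 CPM, median 84.7, in C57BL/6J. NZO females were above NZO males, at 456 to 474 CPM against 357 to 365 CPM, with a sex difference of the strain contrast of 0.13 ± 0.18, adjusted p = 0.912. C4b shares 48.3% of its sequence with other genes, C4a among them. The sum of C4b and C4a was 421 ± 58.2 CPM in NZO and 124 ± 13.2 CPM in CAST (mean ± SD, log2 difference 1.76, exact permutation test, p = 0.00216). C4b makes up most of this sum and was named for its difference in these libraries, so the p is not independent support. C1s1, a protease of the first component, had 1.51 to 2.77 CPM, median 1.95, in NZO against 0.246 to 0.782 CPM, median 0.532, in CAST (log2 change 2.09 ± 0.24, adjusted p = 1.86e-08). Cd59a, which blocks the membrane attack complex, had 14.6 to 21.3 CPM, median 17.6, in NZO against 5.30 to 6.95 CPM, median 6.59, in CAST (log2 change 1.47 ± 0.088, adjusted p = 1.37e-14). Both were higher in NZO without overlap. C3, the component on which the pathways meet, was lower, with 10.1 to 22.6 CPM, median 17.5, in NZO against 35.0 to 49.1 CPM, median 39.7, in CAST (log2 change -1.30 ± 0.23, adjusted p = 2.19e-05). Cfp, properdin of the alternative pathway, was lower too, with 4.37 to 6.25 CPM, median 5.21, in NZO against 9.20 to 11.1 CPM, median 10.1, in CAST (log2 change -0.94 ± 0.12, adjusted p = 1.22e-07).

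Microglial markers were higher in 8 of 15 and lower in 1 (median 0.32). Ctss, a lysosomal protease, had 51.0 to 65.7 CPM, median 58.3, in NZO against 30.3 to 38.0 CPM, median 33.6, in CAST (log2 change 0.78 ± 0.071, adjusted p = 1.68e-10). Trem2, a lipid-sensing receptor, had 4.10 to 6.74 CPM, median 5.08, in NZO against 2.09 to 3.45 CPM, median 3.10, in CAST (log2 change 0.80 ± 0.14, adjusted p = 1.79e-05). Siglech had 7.76 to 8.94 CPM, median 8.45, in NZO against 5.03 to 6.25 CPM, median 5.67, in CAST (log2 change 0.58 ± 0.089, adjusted p = 3.40e-06). All 3 were higher without overlap. Tmem119, a marker of homeostatic microglia, was not called, with 12.4 to 15.1 CPM, median 14.7, in NZO against 12.2 to 13.4 CPM, median 12.5, in CAST (log2 change 0.18 ± 0.10, adjusted p = 0.144). Neither was the growth factor receptor Csf1r (log2 change 0.040 ± 0.055, adjusted p = 0.595). Fcrls, an Fc receptor-like protein of resident microglia, stood against the list with 1.01 to 1.49 CPM, median 1.22, in NZO, 13.5 to 18.4 CPM, median 14.3, in CAST and 10.99 to 13.2 CPM, median 12.05, in C57BL/6J (log2 change -3.62 ± 0.15, adjusted p = 1.44e-18 for NZO against CAST).

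Genes of innate sensing and NF-kB signalling were higher in 12 of 30 and lower in 6 (median 0.16). Tlr4, the endotoxin receptor, had 1.68 to 3.30 CPM, median 2.05, in NZO against 4.63 to 5.95 CPM, median 5.16, in CAST (log2 change -1.20 ± 0.15, adjusted p = 1.43e-07). Tlr3, the receptor of double-stranded RNA, had 14.0 to 21.5 CPM, median 16.4, in NZO against 10.1 to 12.5 CPM, median 11.1, in CAST (log2 change 0.61 ± 0.088, adjusted p = 1.21e-06). Il33, a nuclear alarmin of glia, had 38.3 to 54.3 CPM, median 40.6, in NZO against 61.9 to 84.4 CPM, median 74.9, in CAST (log2 change -0.82 ± 0.13, adjusted p = 6.14e-06). The libraries of the strains did not overlap in any of them, Tlr3 being higher in NZO and Tlr4 and Il33 lower. Naip5, an inflammasome sensor of flagellin, had 1.04 to 2.04 CPM, median 1.54, in NZO against 0.281 to 0.837 CPM, median 0.4998, in CAST (log2 change 1.65 ± 0.22, adjusted p = 3.13e-07), and shares 52.6% of its sequence with other genes, Naip1 and Naip6 among them.

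**Figure D3:**
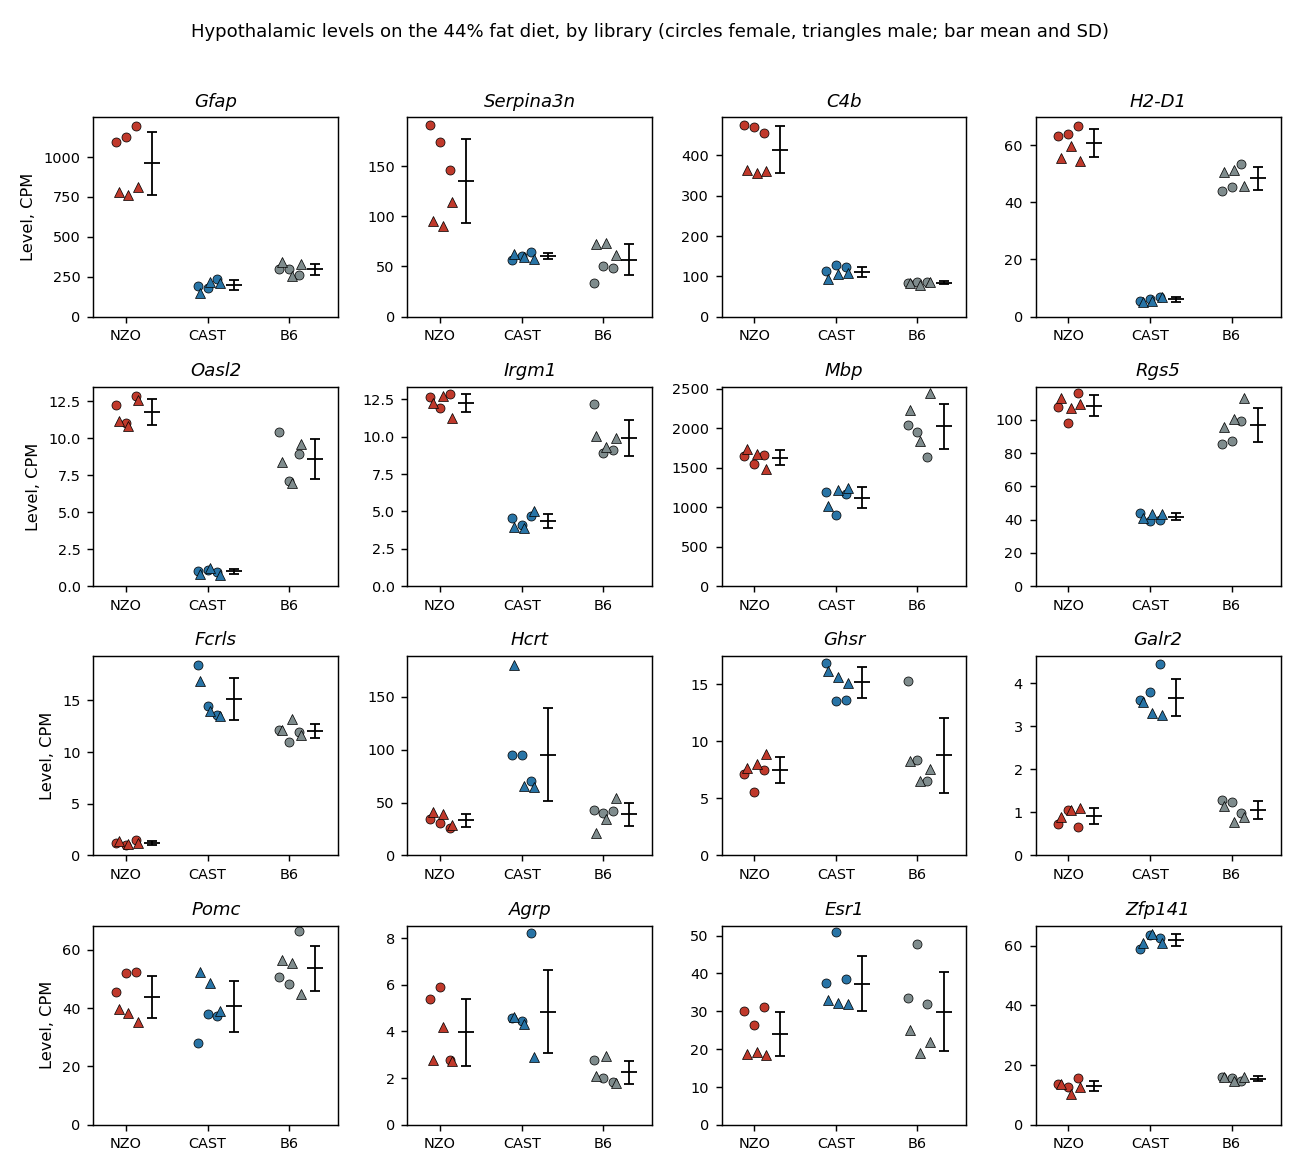
Level in CPM of 16 genes in each HFHS library of NZO (red), CAST (blue) and C57BL/6J (grey), with circles for females, triangles for males and a bar for the mean ± SD (n = 6). NZO lies above both other strains for Gfap, Serpina3n and C4b, C57BL/6J lies near NZO for H2-D1, Oasl2, Rgs5, Galr2 and Zfp141 and nearer CAST for Fcrls, and the strains overlap for Pomc and Agrp.

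Myelin genes were higher in NZO in 14 of 15 tested members and lower in 0, with a median log2 change of 0.57. Mbp, a main protein of compact myelin, had 1488 to 1739 CPM, median 1654, in NZO, 894 to 1247 CPM, median 1179, in CAST and 1639 to 2445 CPM, median 1992, in C57BL/6J (log2 change 0.54 ± 0.12, adjusted p = 6.02e-04 for NZO against CAST). Mobp, a further myelin protein, had 546 to 640.4 CPM, median 588, in NZO against 218 to 317 CPM, median 295, in CAST (log2 change 1.06 ± 0.15, adjusted p = 1.10e-06). Neither overlapped between NZO and CAST. Mal, a proteolipid of myelin, had 135.1 to 151 CPM, median 148, in NZO against 68.9 to 88.4 CPM, median 81.7, in CAST (log2 change 0.86 ± 0.14, adjusted p = 1.08e-05). Cldn11, the tight junction protein of myelin, had 79.0 to 114 CPM, median 87.0, in NZO against 41.1 to 57.3 CPM, median 52.3, in CAST (log2 change 0.87 ± 0.15, adjusted p = 2.43e-05). Trf, the iron carrier transferrin, had 235 to 293 CPM, median 274, in NZO against 108 to 149 CPM, median 140.1, in CAST (log2 change 1.01 ± 0.14, adjusted p = 9.94e-07). These too were higher in every NZO library than in any CAST library. Ermn was the member not called (log2 change 0.33 ± 0.15, adjusted p = 0.0698). The list summed to 4190.0 to 4916 CPM in NZO, 2354 to 3235 CPM in CAST and 5032 to 7488 CPM in C57BL/6J, so that C57BL/6J lay above NZO.

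Precursor markers were higher in 4 of 10 and lower in 1 (median 0.13). Bcas1, of newly formed oligodendrocytes, had 137 to 165 CPM, median 152, in NZO against 68.2 to 96.6 CPM, median 89.8, in CAST (log2 change 0.84 ± 0.12, adjusted p = 1.44e-06). Sox10, the factor that fixes the lineage, had 33.0 to 47.8 CPM, median 39.0, in NZO against 22.9 to 29.3 CPM, median 26.8, in CAST (log2 change 0.59 ± 0.089, adjusted p = 2.43e-06). Both were higher without overlap. Pdgfra, the growth factor receptor of precursors, had 84.0 to 102 CPM, median 93.6, in NZO against 77.4 to 88.3 CPM, median 85.2, in CAST (log2 change 0.17 ± 0.057, adjusted p = 0.0155), and the strains overlapped. Leaving out NZO female 1, NZO female 3 or CAST female 3 removed the call, with adjusted p from 0.0634 to 0.0914. Vcan, a matrix proteoglycan, was lower with some overlap, with 30.7 to 40.7 CPM, median 34.2, in NZO against 36.8 to 47.7 CPM, median 43.6, in CAST (log2 change -0.31 ± 0.092, adjusted p = 0.00703).

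Among vascular markers, 6 of 14 endothelial genes were higher and 1 lower (median 0.26). Of the 10 endothelial genes with under 5% shared sequence, 3 were higher and 1 lower (median 0.17). Of 16 genes of pericytes, vascular muscle and fibroblasts, 4 were higher and 0 lower (median 0.23). These 25% lie near the 22.1% of all tested genes called higher. Across the alternative settings, other filters and the limit on shared sequence aside, 0 to 4 genes of that list were called lower. Vtn, a member of it called higher, lost the call in 11 settings. Rgs5, a pericyte regulator of G protein signals, had 98.0 to 116 CPM, median 109, in NZO against 38.9 to 43.7 CPM, median 42.0, in CAST (log2 change 1.38 ± 0.14, adjusted p = 2.58e-09). Pdgfrb, the pericyte growth factor receptor, had 35.7 to 41.7 CPM, median 39.0, in NZO against 23.8 to 33.8 CPM, median 27.6, in CAST (log2 change 0.50 ± 0.12, adjusted p = 0.00134). Dcn, a proteoglycan of fibroblasts, had 25.02 to 43.8 CPM, median 31.9, in NZO against 13.4 to 20.2 CPM, median 16.0, in CAST (log2 change 1.03 ± 0.22, adjusted p = 3.08e-04). All 3 were higher without overlap. Kdr, the main VEGF receptor, had 20.1 to 27.5 CPM, median 24.3, in NZO against 11.7 to 22.1 CPM, median 17.7, in CAST (log2 change 0.51 ± 0.12, adjusted p = 6.91e-04), with some overlap. Cldn5, the tight junction protein of the barrier, was not called, with 16.4 to 25.3 CPM, median 23.1, in NZO against 16.3 to 20.7 CPM, median 18.6, in CAST (log2 change 0.22 ± 0.16, adjusted p = 0.293). Slco1a4, an organic anion carrier, had 42.3 to 52.4 CPM, median 45.9, in NZO against 28.2 to 35.1 CPM, median 29.6, in CAST (log2 change 0.61 ± 0.14, adjusted p = 8.89e-04). Ly6c1 and Ly6a, surface proteins that share sequence with each other, were both higher (log2 change 1.30 ± 0.11, adjusted p = 9.04e-11, and 0.98 ± 0.17, adjusted p = 1.62e-05).

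Red cell transcripts were higher in NZO in 8 of 10 tested members and lower in 0, with a median log2 change of 1.21. Hbb-bs, a beta globin, had 193 to 428 CPM, median 249, in NZO against 72.3 to 127 CPM, median 96.2, in CAST (log2 change 1.503 ± 0.23, adjusted p = 2.62e-06). Alas2, the erythroid enzyme of haem synthesis, which shares no sequence with another gene, had 7.78 to 17.2 CPM, median 9.76, in NZO against 2.88 to 4.94 CPM, median 3.39, in CAST (log2 change 1.59 ± 0.26, adjusted p = 1.03e-05). The alpha globins Hba-a1 and Hba-a2 are near copies, and their sum was 412 ± 119 CPM in NZO and 145 ± 26.4 CPM in CAST (mean ± SD, log2 difference 1.48, exact permutation test, p = 0.00216). No NZO library overlapped a CAST library in any of these. The list summed to 664 to 1238 CPM in NZO, 295 to 437 CPM in CAST and 423 to 907 CPM in C57BL/6J. Of its 5 members with at most 5% shared sequence, 3 were higher, with a median log2 change of 0.24. The part of blood in the vascular values was not tested.

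Ependymal genes, of the ventricle's ciliated lining, moved in the other direction. They were lower in 7 of 12 tested members and higher in 1, with a median log2 change of -0.68. Foxj1, the factor that drives motile cilia, had 17.3 to 23.2 CPM, median 18.5, in NZO against 26.0 to 35.0 CPM, median 31.8, in CAST (log2 change -0.68 ± 0.17, adjusted p = 0.00132). Ak7, an adenylate kinase of cilia, had 9.02 to 11.6 CPM, median 10.6, in NZO against 22.8 to 28.1 CPM, median 27.3, in CAST (log2 change -1.33 ± 0.20, adjusted p = 2.48e-06). Sntn, a protein of the ciliary tip, had 0 to 0.114 CPM, median 0.0817, in NZO against 1.97 to 2.61 CPM, median 2.09, in CAST (log2 change -5.15 ± 0.48, adjusted p = 2.69e-10). Each was lower in every NZO library. Rarres2, the adipokine chemerin, had 11.6 to 15.3 CPM, median 13.1, in NZO against 21.9 to 28.8 CPM, median 26.4, in CAST (log2 change -0.995 ± 0.17, adjusted p = 1.24e-05). Mia, a secreted protein, was the member higher, with 3.44 to 4.88 CPM, median 3.93, in NZO against 0.286 to 1.31 CPM, median 0.649, in CAST (log2 change 2.602 ± 0.29, adjusted p = 1.04e-08).

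Tanycyte genes were higher in 6 of 15 and lower in 2 (median 0.17). Dio2, the deiodinase that makes active thyroid hormone in tanycytes, had 16.3 to 35.6 CPM, median 25.3, in NZO against 9.86 to 16.2 CPM, median 11.8, in CAST (log2 change 1.004 ± 0.20, adjusted p = 1.07e-04), and the strains did not overlap. Nes, an intermediate filament of tanycytes, had 15.7 to 22.3 CPM, median 19.1, in NZO against 11.3 to 16.1 CPM, median 13.8, in CAST (log2 change 0.48 ± 0.095, adjusted p = 1.15e-04). Rax, the factor that defines tanycytes, was not called, with 1.2496 to 2.55 CPM, median 1.70, in NZO against 1.46 to 3.18 CPM, median 2.36, in CAST (log2 change -0.34 ± 0.31, adjusted p = 0.397). Lhx2, a second such factor, was lower with 4.08 to 5.89 CPM, median 5.17, in NZO against 6.65 to 8.09 CPM, median 7.12, in CAST (log2 change -0.48 ± 0.13, adjusted p = 0.00342).

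Choroid plexus genes were higher in 6 of 14 and lower in 1 (median 0.45), with summed levels of 188 to 302 CPM in NZO and 136 to 151 CPM in CAST. Clic6, a chloride channel protein, had 25.6 to 31.1 CPM, median 28.1, in NZO against 11.3 to 13.7 CPM, median 12.4, in CAST (log2 change 1.17 ± 0.083, adjusted p = 5.97e-13). Enpp2, the enzyme that makes lysophosphatidic acid, had 138 to 193 CPM, median 156, in NZO against 100.5 to 113 CPM, median 105, in CAST (log2 change 0.60 ± 0.10, adjusted p = 1.49e-05). Neither overlapped. Ttr, the plexus carrier of thyroid hormone, had 0.251 to 48.5 CPM, median 0.585, in NZO against 0.182 to 0.921 CPM, median 0.353, in CAST (log2 change 3.16 ± 1.10, adjusted p = 0.0205), and NZO female 1 and NZO female 3 were the high libraries while the others of both strains overlapped. Without NZO male 1, its adjusted p was 0.0553. The part of plexus tissue in the other values was not tested.

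Pituitary hormone genes were higher in 2 of 10 and lower in 2 (median -0.066), with summed levels of 76.2 to 101 CPM in NZO and 73.5 to 112 CPM in CAST. Tshb, thyrotropin's beta chain, had 2.70 to 4.09 CPM, median 3.43, in NZO against 0.475 to 1.19 CPM, median 0.660, in CAST (log2 change 2.28 ± 0.34, adjusted p = 2.42e-06). Lhb and Fshb, the gonadotropin beta chains, were lower, with 0.145 to 0.398 CPM, median 0.221, in NZO against 1.30 to 3.15 CPM, median 2.13, in CAST for Lhb (log2 change -3.17 ± 0.64, adjusted p = 1.67e-04). Fshb had 0.0578 to 1.10 CPM, median 0.426, in NZO against 2.23 to 7.61 CPM, median 4.62, in CAST (log2 change -3.39 ± 0.65, adjusted p = 7.58e-05). Prl had 0.0578 to 0.791 CPM, median 0.402, in NZO against 0 to 13.9 CPM, median 0.0343, in CAST (log2 change -0.47 ± 3.67, adjusted p = 0.933). How much pituitary tissue each sample held was not measured.

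Of 15 neuron markers, 2 were higher and 3 lower, with a median log2 change of -0.045. Rbfox3, the neuronal nuclear protein NeuN, was not called, with 77.9 to 91.8 CPM, median 85.7, in NZO against 77.9 to 99.97 CPM, median 87.1, in CAST (log2 change -0.050 ± 0.067, adjusted p = 0.587). The neurofilament gene Nefh had 79.9 to 92.5 CPM, median 85.2, in NZO against 55.2 to 81.1 CPM, median 62.6, in CAST (log2 change 0.38 ± 0.074, adjusted p = 9.47e-05). Thy1, a neuronal surface protein, had 254.8 to 282 CPM, median 277, in NZO against 292 to 353 CPM, median 314, in CAST (log2 change -0.22 ± 0.047, adjusted p = 2.66e-04).

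Of the peptides that drive feeding, 1 of 7 was higher in NZO and 2 were lower (median -0.12). Agrp, the antagonist of melanocortin receptors, had 2.73 to 5.89 CPM, median 3.503, in NZO against 2.91 to 8.21 CPM, median 4.51, in CAST and was not called (log2 change -0.29 ± 0.27, adjusted p = 0.421). Npy, made by the same neurons, had 15.7 to 24.8 CPM, median 19.9, in NZO against 12.7 to 25.7 CPM, median 18.2, in CAST and was not called (log2 change 0.10 ± 0.22, adjusted p = 0.747). Pmch, the precursor of melanin-concentrating hormone, had 312 to 439.9 CPM, median 369.5, in NZO against 326 to 593 CPM, median 385, in CAST (log2 change -0.12 ± 0.15, adjusted p = 0.552). The strains overlapped in all 3. Hcrt, the orexin precursor, was lower, with 25.7 to 40.6 CPM, median 32.7, in NZO against 64.6 to 180.4 CPM, median 82.4, in CAST (log2 change -1.52 ± 0.28, adjusted p = 4.57e-05), and stayed called without CAST male 1, whose level was the highest. Gal, galanin, was lower with some overlap, a call that 9 of the 12 libraries removed when left out, with 18.5 to 26.2 CPM, median 21.6, in NZO against 23.9 to 32.1 CPM, median 27.3, in CAST (log2 change -0.32 ± 0.13, adjusted p = 0.0473). Qrfp, an RF-amide, was higher, with 2.11 to 3.90 CPM, median 2.53, in NZO against 1.23 to 1.96 CPM, median 1.48, in CAST (log2 change 0.87 ± 0.18, adjusted p = 2.12e-04).

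In the list of feeding peptide receptors, which is not limited to receptors of the peptides above, 7 of 14 tested members were lower and 0 higher (median -0.10). Ghsr, the ghrelin receptor, had 5.53 to 8.92 CPM, median 7.55, in NZO against 13.5 to 16.9 CPM, median 15.4, in CAST (log2 change -1.03 ± 0.16, adjusted p = 6.37e-06). Galr2, a galanin receptor, had 0.669 to 1.11 CPM, median 0.970, in NZO, 3.26 to 4.44 CPM, median 3.59, in CAST and 0.769 to 1.28 CPM, median 1.06, in C57BL/6J (log2 change -1.99 ± 0.16, adjusted p = 1.06e-11 for NZO against CAST). Npy5r, a receptor of Npy, had 4.04 to 6.48 CPM, median 5.37, in NZO against 8.18 to 9.39 CPM, median 8.53, in CAST (log2 change -0.70 ± 0.11, adjusted p = 2.22e-06). The strains did not overlap in any of the 3. Qrfpr, the receptor of Qrfp, had 4.82 to 7.72 CPM, median 6.02, in NZO against 8.94 to 12.1 CPM, median 9.88, in CAST (log2 change -0.74 ± 0.087, adjusted p = 3.34e-08), opposite in direction to its peptide. Mchr1, Npy1r and Gpr101 were the other members lower (log2 change -0.41, -0.35 and -0.22), while the orexin receptors Hcrtr1 and Hcrtr2 were not called (0.047 and 0.043).

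In the melanocortin and satiety pathway 4 of 25 genes were higher and 4 lower (median -0.062). Pomc, the precursor of alpha-MSH, had 35.1 to 52.3 CPM, median 42.6, in NZO against 28.1 to 52.4 CPM, median 38.5, in CAST and was not called (log2 change 0.11 ± 0.18, adjusted p = 0.643). Mc4r, its main receptor in feeding control, had 2.49 to 4.16 CPM, median 3.02, in NZO against 2.87 to 4.43 CPM, median 3.94, in CAST and was not called (log2 change -0.26 ± 0.14, adjusted p = 0.141). Cartpt, a satiety peptide, was higher without overlap, with 57.2 to 81.4 CPM, median 66.8, in NZO against 33.1 to 49.4 CPM, median 44.2, in CAST (log2 change 0.67 ± 0.11, adjusted p = 2.03e-05). Prcp, a protease that cleaves alpha-MSH, was higher as well, with 10.4 to 12.9 CPM, median 11.3, in NZO against 6.79 to 9.35 CPM, median 7.90, in CAST (log2 change 0.55 ± 0.076, adjusted p = 6.56e-07). Calcr, the calcitonin and amylin receptor, had 28.7 to 33.6 CPM, median 30.99, in NZO against 39.2 to 52.2 CPM, median 40.0, in CAST (log2 change -0.45 ± 0.093, adjusted p = 2.41e-04). Crhr2, a receptor of urocortins, had 5.99 to 7.55 CPM, median 7.15, in NZO against 8.32 to 9.83 CPM, median 9.18, in CAST (log2 change -0.39 ± 0.11, adjusted p = 0.00487). Both were lower, with no overlap.

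Leptin and cytokine signalling genes were higher in 6 of 20 and lower in 3 (median -0.033). Lepr, the leptin receptor, was not called, with 9.96 to 16.1 CPM, median 11.5, in NZO against 11.9 to 15.4 CPM, median 13.9, in CAST (log2 change -0.18 ± 0.17, adjusted p = 0.417). Stat3, which carries leptin's signal, had 117 to 134.7 CPM, median 126, in NZO against 85.8 to 93.6 CPM, median 90.3, in CAST (log2 change 0.48 ± 0.045, adjusted p = 3.46e-10). Socs3, the Stat3 target that feeds back on the receptor, had 5.11 to 8.70 CPM, median 6.80, in NZO against 2.40 to 3.88 CPM, median 2.95, in CAST (log2 change 1.17 ± 0.16, adjusted p = 5.74e-07). Both were higher without overlap. Socs2, of the same family, had 9.87 to 14.2 CPM, median 11.6, in NZO against 4.10 to 8.22 CPM, median 5.17, in CAST (log2 change 1.13 ± 0.13, adjusted p = 2.53e-08).

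Insulin and IGF signalling genes were lower in 10 of 28 and higher in 5 (median -0.074). Insr, the insulin receptor, had 84.7 to 99.2 CPM, median 93.4, in NZO against 78.9 to 87.6 CPM, median 85.7, in CAST and missed the threshold (log2 change 0.14 ± 0.062, adjusted p = 0.0752). Igf1r, the receptor of IGF1, had 109 to 121 CPM, median 118, in NZO against 141 to 163 CPM, median 148, in CAST (log2 change -0.35 ± 0.058, adjusted p = 9.06e-06). Irs2, the docking protein of both receptors, had 111 to 127 CPM, median 118, in NZO against 138 to 162 CPM, median 147, in CAST (log2 change -0.32 ± 0.087, adjusted p = 0.00375). Foxo1, the transcription factor that insulin restrains, had 32.1 to 35.1 CPM, median 34.3, in NZO against 46.3 to 50.7 CPM, median 49.4, in CAST (log2 change -0.52 ± 0.066, adjusted p = 1.39e-07). The last 3 were lower in every NZO library. The members higher were mostly binding proteins of IGF: Igfbp5 had 421 to 541 CPM, median 451, in NZO against 209.8 to 245 CPM, median 223, in CAST (log2 change 1.03 ± 0.087, adjusted p = 3.80e-11). Igfbp4 had 15.5 to 21.01 CPM, median 18.7, in NZO against 6.31 to 8.49 CPM, median 7.84, in CAST (log2 change 1.28 ± 0.12, adjusted p = 1.98e-10). Grb14, an adaptor that inhibits the insulin receptor, had 15.1 to 17.1 CPM, median 16.4, in NZO against 9.90 to 12.02 CPM, median 10.7, in CAST (log2 change 0.60 ± 0.070, adjusted p = 3.68e-08).

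Steroid and prolactin receptor genes were lower in 5 of 11 and higher in 0 (median -0.20). Esr1, oestrogen receptor alpha, had 18.3 to 31.1 CPM, median 22.8, in NZO against 32.004 to 51.0 CPM, median 35.1, in CAST (log2 change -0.66 ± 0.13, adjusted p = 1.25e-04), and in both strains every female library was above every male library. Srd5a1, which makes dihydrotestosterone, had 4.42 to 6.01 CPM, median 5.05, in NZO against 7.43 to 9.83 CPM, median 8.82, in CAST (log2 change -0.77 ± 0.084, adjusted p = 8.34e-09). Nr3c1, the glucocorticoid receptor, had 115 to 136 CPM, median 117, in NZO against 131 to 145 CPM, median 134.7, in CAST (log2 change -0.16 ± 0.045, adjusted p = 0.00383). The strains overlapped in Nr3c1 and not in Esr1 or Srd5a1.

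The other hypothalamic peptides went both ways, with 5 of 26 higher and 5 lower (median 0.080). Tac1, the substance P precursor, had 43.0 to 61.5 CPM, median 50.4, in NZO against 35.5 to 43.9 CPM, median 37.2, in CAST (log2 change 0.42 ± 0.065, adjusted p = 3.83e-06). Chga, a granin of secretory vesicles, was higher, with 209.6 to 258 CPM, median 232, in NZO against 171 to 194 CPM, median 186, in CAST (log2 change 0.35 ± 0.093, adjusted p = 0.00301). The granin Scg2 was lower, with 836 to 945 CPM, median 904, in NZO against 958 to 1275 CPM, median 1052, in CAST (log2 change -0.29 ± 0.085, adjusted p = 0.00594). Avp and Oxt, vasopressin and oxytocin, were not called. Avp had 73.3 to 238 CPM, median 137, in NZO against 76.3 to 164 CPM, median 116, in CAST (log2 change 0.23 ± 0.20, adjusted p = 0.397). Oxt had 23.4 to 88.4 CPM, median 61.2, in NZO against 66.3 to 103.5 CPM, median 77.7, in CAST (log2 change -0.52 ± 0.29, adjusted p = 0.15). Cort, cortistatin, was low in both, with 0.0289 to 0.306 CPM, median 0.149, in NZO against 0.614 to 1.01 CPM, median 0.666, in CAST (log2 change -2.46 ± 0.47, adjusted p = 9.90e-05).

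Chaperone genes of the cytosol and of the endoplasmic reticulum were lower in NZO as groups. Heat shock proteins were lower in 10 of 18 tested members and higher in 1 (median -0.24), and genes of the unfolded protein response in the endoplasmic reticulum were lower in 13 of 21 and higher in 1 (median -0.26). Most changes were under 2-fold. Across the alternative settings, other filters and the limit on shared sequence aside, 7 to 15 heat shock genes and 10 to 15 unfolded protein response genes were called lower. The promoters of a member of each have the motif in capitals, searched on both strands of the RefSeq windows described above. The heat shock element was GAA, TTC and GAA with any 2 bases in each gap, and the endoplasmic reticulum stress response element was CCAAT and CCACG with any 9 bases between them.
Hsph1 (chr5:149636266-149636565, minus strand): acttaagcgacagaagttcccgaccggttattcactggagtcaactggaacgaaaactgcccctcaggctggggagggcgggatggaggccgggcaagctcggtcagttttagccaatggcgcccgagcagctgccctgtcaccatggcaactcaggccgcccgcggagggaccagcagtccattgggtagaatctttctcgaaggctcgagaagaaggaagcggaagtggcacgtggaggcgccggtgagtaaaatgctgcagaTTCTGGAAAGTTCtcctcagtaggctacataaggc
Hspa5 (chr2:34771840-34772139, plus strand): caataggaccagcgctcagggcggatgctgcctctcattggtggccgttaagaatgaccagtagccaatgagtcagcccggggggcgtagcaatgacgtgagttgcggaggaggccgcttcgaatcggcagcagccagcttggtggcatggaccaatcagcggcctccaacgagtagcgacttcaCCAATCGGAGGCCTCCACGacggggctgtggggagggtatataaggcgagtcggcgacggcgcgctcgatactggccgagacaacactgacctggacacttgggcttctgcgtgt
The heat shock element stood in 4 of 15 heat shock genes with a promoter entry (26.7%), against 0.53% of all tested genes with an entry. The stress response element stood in 6 of 19 unfolded protein response genes (31.6%), against 0.17%.

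Hsph1, a cytosolic chaperone of the HSP110 class, had 289 to 314 CPM, median 303, in NZO against 389 to 465 CPM, median 433, in CAST (log2 change -0.51 ± 0.10, adjusted p = 9.27e-05). Hspa5, the reticulum's chief chaperone BiP, had 415 to 461 CPM, median 426, in NZO against 491 to 579.6 CPM, median 540.2, in CAST (log2 change -0.30 ± 0.091, adjusted p = 0.0094). Hyou1, its partner, had 220.5 to 247 CPM, median 235, in NZO against 276 to 318 CPM, median 300.4, in CAST (log2 change -0.34 ± 0.049, adjusted p = 1.43e-06). In all 3 every NZO library was below every CAST library. Pdia6, a disulfide isomerase, had 109 to 119.7 CPM, median 111, in NZO against 133 to 154 CPM, median 145, in CAST (log2 change -0.36 ± 0.071, adjusted p = 1.32e-04). Herpud1, of protein disposal from the reticulum, had 53.2 to 64.6 CPM, median 59.7, in NZO against 71.5 to 76.0 CPM, median 73.1, in CAST (log2 change -0.32 ± 0.065, adjusted p = 1.80e-04). Fkbp4, a cochaperone of steroid receptors, had 130.04 to 141 CPM, median 137, in NZO against 156 to 178 CPM, median 170.1, in CAST (log2 change -0.31 ± 0.066, adjusted p = 3.46e-04). Hspd1, the mitochondrial chaperonin, had 160.3 to 186 CPM, median 178, in NZO against 198 to 221 CPM, median 207, in CAST (log2 change -0.24 ± 0.054, adjusted p = 5.39e-04). These were lower without overlap. Hsp90aa1, the inducible HSP90, was not called, with 1044 to 1214 CPM, median 1148, in NZO against 1162 to 1342 CPM, median 1235, in CAST (log2 change -0.12 ± 0.081, adjusted p = 0.256). The members higher were Hspb8, a small heat shock protein, with 20.3 to 26.5 CPM, median 23.96, in NZO against 11.5 to 18.5 CPM, median 15.1, in CAST (log2 change 0.67 ± 0.12, adjusted p = 6.02e-05), and Atf3, a stress-induced factor, with 1.58 to 3.18 CPM, median 2.64, in NZO against 0.491 to 1.005 CPM, median 0.763, in CAST (log2 change 1.74 ± 0.29, adjusted p = 1.03e-05).

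Glucocorticoid-induced genes were lower in 7 of 20 and higher in 2 (median -0.34). Fkbp5, a cochaperone that restrains the glucocorticoid receptor, had 29.8 to 33.9 CPM, median 31.2, in NZO against 41.4 to 65.8 CPM, median 60.7, in CAST (log2 change -0.83 ± 0.15, adjusted p = 4.56e-05). Tsc22d3, the leucine zipper protein GILZ, had 43.9 to 67.1 CPM, median 49.5, in NZO against 75.6 to 95.7 CPM, median 86.3, in CAST (log2 change -0.72 ± 0.17, adjusted p = 7.90e-04). Klf9, a Krüppel-like factor, had 40.4 to 60.2 CPM, median 45.9, in NZO against 63.7 to 80.3 CPM, median 74.7, in CAST (log2 change -0.62 ± 0.11, adjusted p = 4.02e-05). All 3 were lower without overlap. Sult1a1, a sulfotransferase, was higher, with 8.72 to 16.4 CPM, median 9.94, in NZO against 3.59 to 5.30 CPM, median 4.19, in CAST (log2 change 1.38 ± 0.25, adjusted p = 4.76e-05).

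Genes of the primary cilium and the BBSome, a coat that moves receptors in and out of the cilium, were lower in 11 of 25 and higher in 2 (median -0.10). Ttc8, which is BBS8, had 17.8 to 20.3 CPM, median 19.1, in NZO against 30.5 to 32.4 CPM, median 31.02, in CAST (log2 change -0.71 ± 0.047, adjusted p = 9.88e-14). Bbs2 had 33.9 to 38.4 CPM, median 36.3, in NZO against 45.2 to 49.2 CPM, median 47.8, in CAST (log2 change -0.39 ± 0.052, adjusted p = 3.98e-07). Bbs9 had 27.9 to 31.7 CPM, median 30.3, in NZO against 34.5 to 39.6 CPM, median 37.3, in CAST (log2 change -0.32 ± 0.049, adjusted p = 3.63e-06). Ift172, of the transport trains in the cilium, had 81.6 to 90.7 CPM, median 87.0, in NZO against 102 to 110.2 CPM, median 107, in CAST (log2 change -0.29 ± 0.040, adjusted p = 7.10e-07). In none of the 4 did the strains overlap.

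Potassium channel genes were lower in 12 of 32 and higher in 5 (median -0.12). Kcnj16, an inward rectifier of glia, had 53.1 to 69.2 CPM, median 56.6, in NZO against 84.8 to 101 CPM, median 95.0, in CAST (log2 change -0.68 ± 0.063, adjusted p = 3.19e-10). Kcnn2, a calcium-activated channel, had 17.0 to 22.01 CPM, median 19.2, in NZO against 28.2 to 38.1 CPM, median 33.3, in CAST (log2 change -0.79 ± 0.087, adjusted p = 8.85e-09). Kcnip1, a subunit that binds Kv4 channels, had 42.1 to 48.4 CPM, median 44.6, in NZO against 54.2 to 59.8 CPM, median 57.6, in CAST (log2 change -0.34 ± 0.051, adjusted p = 2.24e-06). All were lower without overlap. Opioid and cannabinoid signalling genes were lower in 6 of 11 and higher in 0 (median -0.20). Faah, which degrades anandamide, had 33.6 to 40.8 CPM, median 37.1, in NZO against 41.1 to 47.9 CPM, median 43.4, in CAST (log2 change -0.24 ± 0.047, adjusted p = 9.24e-05). Abhd6 and Daglb, of 2-arachidonoylglycerol turnover, had log2 changes of -0.27 ± 0.051, adjusted p = 6.32e-05, and -0.20 ± 0.051, adjusted p = 0.00183. Oprl1, the nociceptin receptor, had 98.6 to 110.0 CPM, median 107, in NZO against 115 to 125 CPM, median 121, in CAST (log2 change -0.19 ± 0.055, adjusted p = 0.00621).

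Lipid metabolism genes went both ways, with 10 of 39 higher and 12 lower (median -0.0052). Lpl, the lipase of lipoprotein triglyceride, had 5.13 to 8.36 CPM, median 7.33, in NZO against 1.30 to 2.88 CPM, median 2.08, in CAST (log2 change 1.71 ± 0.18, adjusted p = 2.16e-09). Scd1, a fatty acid desaturase, had 405 to 462 CPM, median 419, in NZO against 306 to 363 CPM, median 329, in CAST (log2 change 0.37 ± 0.059, adjusted p = 6.12e-06). Scd2, the brain's main form, had 2517 to 2761 CPM, median 2626, in NZO against 2119 to 2279 CPM, median 2206, in CAST (log2 change 0.26 ± 0.042, adjusted p = 8.85e-06). Plin2, the coat of lipid droplets, was lower, with 10.3 to 13.2 CPM, median 11.3, in NZO against 17.4 to 20.7 CPM, median 19.9, in CAST (log2 change -0.76 ± 0.094, adjusted p = 8.72e-08). None of the 4 overlapped. Glutathione and antioxidant genes were higher in 11 of 34 and lower in 14 (median -0.024). Glo1, which clears methylglyoxal, had 86.8 to 99.9 CPM, median 90.0, in NZO against 197 to 204 CPM, median 201, in CAST (log2 change -1.13 ± 0.049, adjusted p = 3.73e-18). Gsta4, a glutathione transferase of lipid aldehydes, was higher, with 30.9 to 35.9 CPM, median 34.0, in NZO against 9.11 to 13.6 CPM, median 11.4, in CAST (log2 change 1.56 ± 0.089, adjusted p = 3.23e-15). The transferase Gstm6 had 5.03 to 6.89 CPM, median 6.16, in NZO against 20.9 to 23.3 CPM, median 21.6, in CAST (log2 change -1.87 ± 0.084, adjusted p = 9.96e-18). Gstm7 had 48.7 to 57.04 CPM, median 55.1, in NZO against 105 to 113 CPM, median 109.7, in CAST (log2 change -1.02 ± 0.058, adjusted p = 3.06e-15).

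Of 15 tested candidate genes of loci known for obesity and diabetes in NZO crosses, 4 were higher and 3 lower (median -0.0083). Ifi202b, an interferon-inducible gene of an NZO locus on chromosome 1, had 0.511 to 1.09 CPM, median 0.910, in NZO and 0 to 0.0286 CPM, median 0, in CAST, which is 194 counts over the NZO libraries against 2 over the CAST libraries. The ratio of CPM was 91.6, with an exact interval of 25.03 to 762 for counting error only. Apoa2, an apolipoprotein on the same chromosome, had 0 to 0.0510 CPM, median 0, in NZO and 0.461 to 0.891 CPM, median 0.623, in CAST, which is 2 counts against 132, a CPM ratio of 0.0143 with an exact interval of 0.00172 to 0.0527. Pla2g4a, which frees arachidonic acid, had 3.54 to 7.24 CPM, median 5.02, in NZO against 1.67 to 2.65 CPM, median 2.34, in CAST (log2 change 1.19 ± 0.18, adjusted p = 2.52e-06). Znrf3, a ubiquitin ligase that limits Wnt signals, had 16.3 to 19.3 CPM, median 17.6, in NZO against 21.8 to 25.7 CPM, median 22.5, in CAST (log2 change -0.38 ± 0.065, adjusted p = 1.91e-05). In all 4 the strains did not overlap.

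The genes with the smallest p included some that were nearly absent in one strain. Fam213b, a prostamide synthase, had 31.7 to 47.4 CPM, median 40.6, in NZO and no count in any CAST library, at least 2859.7-fold higher in NZO with CAST set at 3 counts over its 6 libraries. Pon2, a paraoxonase (chromosome 6, 5264147 to 5298455), had 31.4 to 37.1 CPM, median 34.0, in NZO against 1.69 to 2.79 CPM, median 2.20, in CAST (log2 change 3.96 ± 0.11, adjusted p = 4.19e-23). Mttp, which loads lipid onto lipoproteins, had 36.7 to 39.9 CPM, median 38.5, in NZO against 10.8 to 12.7 CPM, median 11.6, in CAST (log2 change 1.73 ± 0.054, adjusted p = 9.37e-22). All 3 share at most 0.818% of their sequence with other genes. Zfp783, a zinc finger gene annotated as a transcribed pseudogene with 6.04% of its sequence shared (log2 change 3.81 ± 0.11, adjusted p = 3.87e-22), Pdxdc1 (log2 change 1.23 ± 0.038, adjusted p = 5.53e-22) and the long non-coding RNA Firre (log2 change 2.79 ± 0.091, adjusted p = 2.37e-21) followed in this direction. Among genes lower in NZO, Fggy, a carbohydrate kinase, had 1.22 to 1.91 CPM, median 1.56, in NZO against 15.2 to 18.03 CPM, median 16.5, in CAST (log2 change -3.37 ± 0.080, adjusted p = 1.51e-24). Madd, an adaptor of Rab3 and death receptor signals, had 21.1 to 26.3 CPM, median 24.6, in NZO against 71.2 to 77.9 CPM, median 76.5, in CAST (log2 change -1.66 ± 0.056, adjusted p = 6.29e-21). Retsat, which saturates retinol, had 16.2 to 22.96 CPM, median 18.05, in NZO against 92.3 to 107 CPM, median 94.7, in CAST (log2 change -2.39 ± 0.074, adjusted p = 8.17e-22). Tceanc2 had 2.07 to 2.83 CPM, median 2.56, in NZO against 17.8 to 21.02 CPM, median 19.4, in CAST (log2 change -2.96 ± 0.088, adjusted p = 3.16e-22). None of these 10 genes overlapped between the strains.

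Among the largest changes in genes whose higher strain averaged at least 5 CPM, 5 were in genes that share no sequence with another gene, of which Fam213b is given above. Tspan10, a tetraspanin, had 0 to 0.122 CPM, median 0.0416, in NZO against 5.76 to 9.92 CPM, median 6.81, in CAST (log2 change -7.44 ± 0.35, adjusted p = 9.28e-16). Kcnmb3, a subunit of the BK channel, had 0 to 0.182 CPM, median 0.0399, in NZO against 1.73 to 6.83 CPM, median 5.74, in CAST (log2 change -6.59 ± 0.51, adjusted p = 5.71e-12). Cyp2f2, a cytochrome P450 known from lung, had 3.87 to 8.67 CPM, median 5.23, in NZO against 0.0286 to 0.670 CPM, median 0.0836, in CAST (log2 change 5.29 ± 0.71, adjusted p = 3.63e-07). Bpifa1, a secreted airway protein, was uneven, with 0.144 to 18.9 CPM, median 2.84, in NZO against 0 to 0.419 CPM, median 0.0693, in CAST (log2 change 5.30 ± 1.27, adjusted p = 0.00108), and the strains overlapped.

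Other large changes were in genes that share sequence with a copy elsewhere, and for several of them the copy differed in the other direction. mt-Co2, a subunit of cytochrome oxidase, had 1541 to 2063 CPM, median 1658, in NZO against 3.19 to 7.63 CPM, median 4.43, in CAST (log2 change 8.37 ± 0.27, adjusted p = 2.14e-21), while all of its sequence is shared with other genes. Summed with Gm13341 and Gm28661 it was 4312 ± 597 CPM in NZO and 4191 ± 208 CPM in CAST (mean ± SD, exact permutation test, two-sided p = 0.719, adjusted over the 29 sums 0.772). Rpl17, a ribosomal protein, had 6.23 to 9.20 CPM, median 6.88, in NZO against 224 to 255.4 CPM, median 233, in CAST (log2 change -5.04 ± 0.15, adjusted p = 3.16e-22), against 241 ± 14.7 CPM in NZO and 1.48 ± 1.55 CPM in CAST for the pseudogene Rpl17-ps8. Summed with Rpl17-ps8 and Rpl17-ps10 it was 248 ± 14.5 CPM in NZO and 238 ± 10.98 CPM in CAST (exact permutation p = 0.201). Sums of Rpl9, Rpl19, Rpl27 and Eno1b with their copies did not pass either (exact permutation p = 0.312, 0.762, 0.126 and 0.851), with log2 differences of 0.041, 0.014, 0.083 and -0.0094 against -4.06, -3.04, -2.67 and -6.92 for the genes alone. The sum of Tuba1c with the other alpha tubulins differed by 0.11 against -5.78 alone, and that of Rps12 by -0.26 against -4.15. The sum went the other way for Hist2h2aa2, a histone gene at 0 in every CAST library and at least 441-fold higher in NZO with CAST set at 3 counts over its libraries. With its relatives it differed by -0.22 (exact permutation p = 0.00216). Sums stayed apart for Tmem254b (1.66), Catsperg2 (2.15), Cml2 (-3.96) and Zfp141 (-1.29), each at p = 0.00216, the smallest the exact permutation test allows (0.0033 adjusted over the 29 sums). These genes were named for their differences in the same libraries, so their p-values are not independent support. The sum of H2-Q7 with H2-Q5 and H2-Q10 differed by -1.02, in the direction of the gene alone.

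The cytosolic ribosomal protein list had 7 of 45 higher and 7 lower (median 0.068), and only 1 of its members shares at most 5% of its sequence with other genes. Across the alternative settings, other filters and the limit on shared sequence aside, 6 to 19 of them were called higher, so no direction is given for the list. Of 13 mitochondrially encoded genes, 1 was higher and 5 lower (median -0.19). mt-Nd2 and mt-Cytb, of complexes I and III, had log2 changes of -1.07 ± 0.093, adjusted p = 7.22e-11, and -0.20 ± 0.047, adjusted p = 9.36e-04, and mt-Atp6 of -0.72 ± 0.10, adjusted p = 5.16e-07, while mt-Atp6 summed with Gm10925 differed by -0.29 (exact permutation p = 0.0216).

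**Figure D4:**
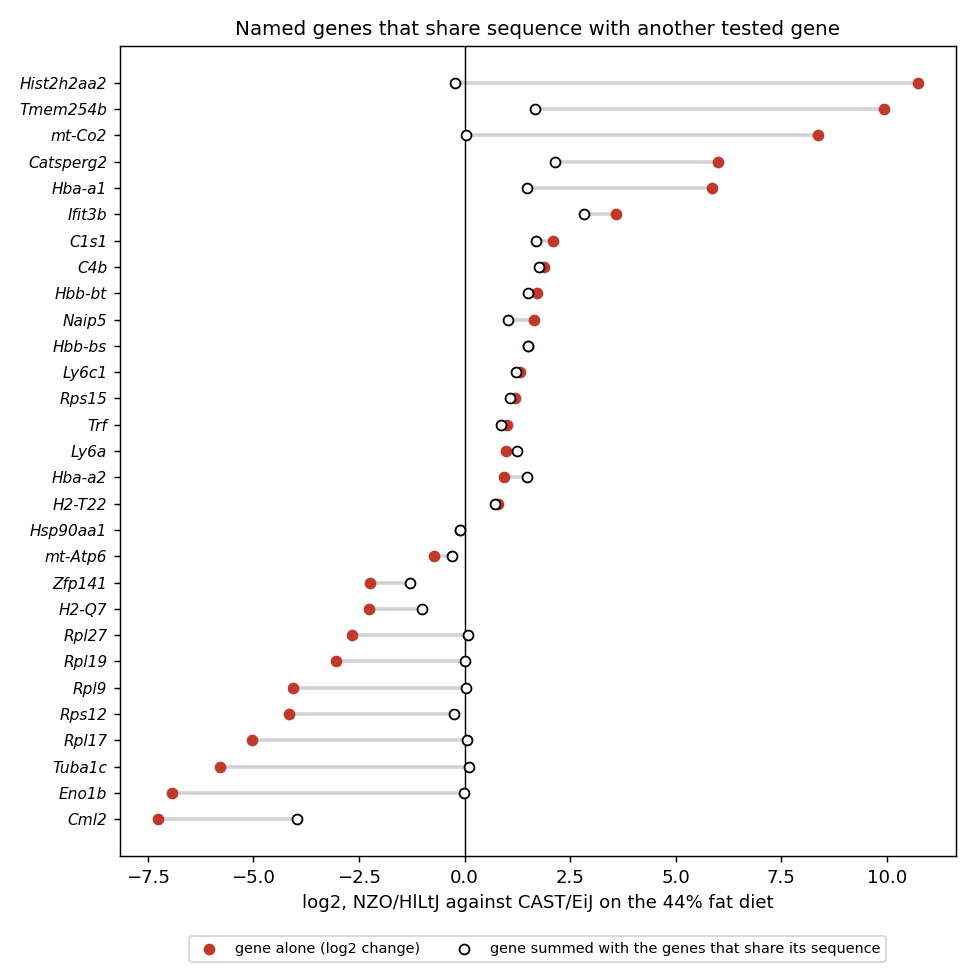
Log2 change of NZO against CAST on HFHS for named genes that share sequence with another tested gene (red points), and the log2 difference of the gene summed with those genes (open circles), a grey line joining the pair. For mt-Co2, Rpl9, Rpl17, Rpl19, Rpl27, Tuba1c and Eno1b the open circle lies near 0 while the red point lies far from it, and for C4b, Ifit3b and the globin genes both lie on the same side. The fitted value of Hist2h2aa2, which has no count in CAST, depends on the fit's prior count.

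The same strain contrast was taken in the libraries of the control diet. They are not among the libraries that the HFHS contrast compares, but the fit takes its spread from all 36 libraries, and without CAST control female 1 the HFHS count was 9440. There 8611 of 20053 genes (42.9%) were called, 4249 (21.2%) higher in NZO and 4362 (21.8%) lower. Of the genes called on HFHS, 5711 were called in the same direction on the control diet, which is 66.1% of the HFHS calls and 66.3% of the control calls, and 52 were called in opposite directions. For the interferon list 31 of 39 were higher and 2 lower on the control diet (median 1.02), and for antigen presentation 12 of 22 were higher and 5 lower (median 0.61). Of the myelin list, 2 of 15 were higher on the control diet (median 0.046), of the blood list 1 of 10 higher and 2 lower (median 0.043), and of the gliosis list 8 of 18 higher and 1 lower (median 0.37). Heat shock genes had 2 of 18 higher and 0 lower (median 0.12), and feeding peptide receptors 4 of 14 higher and 5 lower (median 0.074). Ependymal genes had 1 of 12 higher and 8 lower on the control diet as well (median -0.90). Tanycyte genes had 1 of 15 higher and 6 lower there (median -0.24), against 6 higher and 2 lower on HFHS. Unfolded protein response genes had 1 of 21 higher and 3 lower (median -0.13), and astrocyte genes 3 of 14 higher and 3 lower (median 0.055).

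Whether a gene's strain difference depended on the diet was tested as the difference of both contrasts. It was called in 361 genes (1.8%), 193 (0.962%) with a larger value on HFHS and 168 (0.838%) with a smaller one. The count was 78 without NZO control female 1, 2211 without CAST control female 2, 49 without CAST control females 1 and 3, and 17 without CAST HFHS male 1 and female 3, so the genes described below are given with the settings in which they were called. Of the 32 named genes called, 9 were called in every setting run. Of these genes 141 were called on HFHS only and 106 on the control diet only. By list, 5 of 18 gliosis genes, 4 of 15 myelin genes, 5 of 10 blood genes and 4 of 14 astrocyte genes had a larger value on HFHS. None in those lists had a smaller one. Gfap counts in both the gliosis and the astrocyte numbers. Of antigen presentation genes, 3 of 22 had a larger value and 0 a smaller one. Of heat shock genes, 4 of 18 had a smaller value and none a larger one, and of 39 interferon genes none passed in either direction. CAST control female 1 had the highest mean log2 CPM of the myelin list among all NZO and CAST libraries, at 7.30, against 5.84 to 6.58 in the other CAST control libraries. Without that library the diet difference was called in 259 genes, and that of Trf was 0.55 with an adjusted p of 0.0752.

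H1f0, a linker histone, had 83.1 to 93.4 CPM, median 85.9, in NZO against 56.5 to 64.4 CPM, median 58.8, in CAST on HFHS (log2 change 0.55 ± 0.053, adjusted p = 6.22e-10). On the control diet it had 68.6 to 81.7 CPM, median 72.2, in NZO against 60.7 to 87.7 CPM, median 67.7, in CAST (log2 change 0.042 ± 0.053, adjusted p = 0.549), a difference of 0.50 ± 0.075, adjusted p = 0.00285. Hist1h1c, a second linker histone, differed by 1.10 ± 0.17, adjusted p = 0.00285, and Mir22hg, a microRNA host gene, by 0.69 ± 0.11, adjusted p = 0.0051. Sspn, a dystrophin-linked protein, was lower in NZO with a log2 change of -0.31 ± 0.093, adjusted p = 0.00813, on HFHS and of -1.07 ± 0.10, adjusted p = 1.11e-10, on the control diet, with a difference of 0.76 ± 0.13, adjusted p = 0.009. Shisa4 differed by 0.53 ± 0.092, adjusted p = 0.009. In the other direction, Gfra1, the receptor of GDNF, was not called on HFHS (-0.071 ± 0.059, adjusted p = 0.355) and was higher in NZO on the control diet (0.42 ± 0.059, adjusted p = 1.05e-06), with a difference of -0.49 ± 0.084, adjusted p = 0.009. Trp53bp1, of DNA repair, was lower in NZO on HFHS (-0.18 ± 0.043, adjusted p = 0.00132) and higher on the control diet (0.17 ± 0.043, adjusted p = 0.00177). Tacr1, the substance P receptor, differed by -0.65 ± 0.13, adjusted p = 0.0168, Kcnh1, a potassium channel, by -0.42 ± 0.084, adjusted p = 0.0171, and Reln, reelin, by -0.69 ± 0.14, adjusted p = 0.0174. Kcnh1 and Reln lost the call in 2 of 36 settings each, and H1f0, Hist1h1c, Mir22hg, Sspn, Shisa4, Gfra1, Trp53bp1 and Tacr1 were called in every setting run, as was Retsat with 0.53 ± 0.10, adjusted p = 0.0155.

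Among list members, Gfap had a strain difference on HFHS larger by 1.19 ± 0.25, adjusted p = 0.0207, than on the control diet, where it had 525 to 939.9 CPM, median 649, in NZO against 194 to 743 CPM, median 268, in CAST. The highest of those CAST values was female 1. Without CAST control female 1 the difference of Gfap was 0.84 with an adjusted p of 0.019, and without CAST control females 1 and 3 it was 0.82 with an adjusted p of 0.0549. It was called in 33 of 36 settings. The difference of Serpina3n was 0.85 ± 0.15, adjusted p = 0.00926, with all libraries, 0.75 with an adjusted p of 0.0133 without CAST control female 1, and 0.77 with an adjusted p of 0.0433 without both. It was called in 34 of 35 settings. Npy had 8.06 to 22.1 CPM, median 14.6, in NZO against 20.9 to 80.1 CPM, median 28.5, in CAST on the control diet (log2 change -1.30 ± 0.22, adjusted p = 1.79e-05), and its diet difference of 1.40 ± 0.31, adjusted p = 0.0246 was called in 34 of 36 settings. Hbb-bs differed by 1.53 ± 0.31, adjusted p = 0.0174, called in 34 of 35 settings. Hsph1 differed by -0.62 ± 0.14, adjusted p = 0.0248, called in 33 of 36. Trf, with 0.77 ± 0.20, adjusted p = 0.0474, was called in 10 of 35, C4b, with 0.54 ± 0.13, adjusted p = 0.033, in 17 of 35, and Avp, with 1.11 ± 0.29, adjusted p = 0.0463, in 12 of 35.

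**Figure D5:**
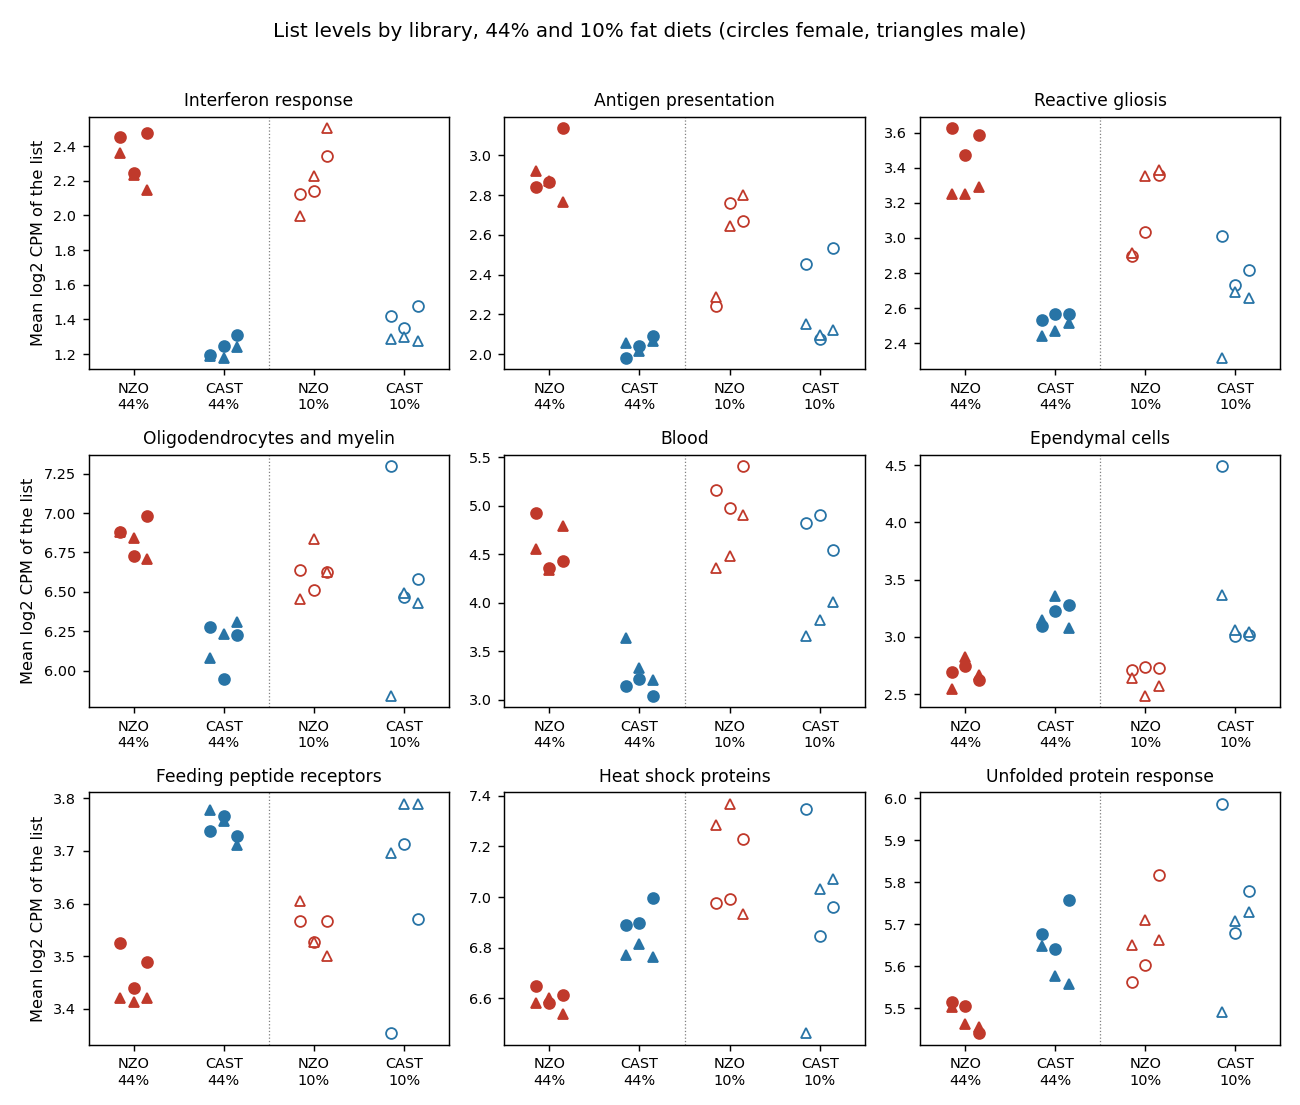
Mean log2 CPM of the tested members of 9 lists in each library of NZO (red) and CAST (blue) on HFHS (filled) and on the control diet (open), with circles for females and triangles for males. On HFHS the strains separate in all 9 panels. On the control diet they separate for the interferon and ependymal lists and overlap in the other 7, and CAST control female 1 has the highest CAST value for gliosis, myelin, ependymal cells, heat shock and the unfolded protein response and the lowest for the feeding peptide receptors.

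The strain difference on HFHS was tested for a difference between females and males. In females alone 6126 genes (30.5%) were called and in males alone 5626 (28.1%), and the difference between the sexes was called in 1 gene (0.00499%), with 1239 genes at an unadjusted p under 0.05. The gene was Nbr1, an autophagy receptor (chromosome 11, 101552149 to 101581951). It had 175 to 180.0 CPM in NZO females against 194.7 to 207 CPM in CAST females, and 164 to 171 CPM in NZO males against 294 to 424 CPM in CAST males (difference of the strain contrast 0.98 ± 0.15, adjusted p = 0.00805). CAST male 1 and CAST male 3 were the high libraries. Leaving out either, or CAST female 2, removed the call.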

How the data were processed

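Hypothalamic RNA was extracted with a MagMAX mirVana kit and polyA-selected libraries were made with the KAPA mRNA HyperPrep kit, per the labels' protocols. The authors deposited estimated counts per gene for 36 libraries and 24265 genes, and variance-stabilized log2 values of the same libraries. The submitters' processing notes name DESeq2 and GRCm38. Not given in the sources used here: aligner, counter, annotation release, strand setting, and whether all strains shared one genome in alignment. ERCC spike-ins were not analysed here. Of the count values, 21.0% lay over 0.001 from a whole number; they were rounded, which changed no library total by over 0.000186%.

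Counts were tested with edgeR 4.0.16 (R 4.3.3): filterByExpr on 12 groups of strain, diet and sex (20053 genes kept), TMM scaling, a quasi-likelihood F-test over all 36 libraries with 24 residual degrees of freedom (common biological coefficient of variation 12.1%), contrasts with the sexes weighted equally, and Benjamini-Hochberg adjustment over all tested genes. The SE is the log2 change over the square root of F. CPM uses the effective library size. Levels of different genes are not scaled by length, so levels are compared within a gene. Counts were also simulated over the 20053 genes, with 50 genes changed at each fold and no other difference between groups. There the HFHS contrast recovered 42% at 1.25-fold, 74% at 1.5-fold, 98% at 2-fold and 100% at 4-fold, with 5 false calls. The diet difference recovered 14%, 64%, 92% and 100% at the same folds, with 3 false calls. In the data 43.1% of genes were called on HFHS, so these rates do not carry over to the HFHS contrast. Replicate pairs differed by more than sampling noise (chi-square per degree of freedom 5.74 to 25.7), and each library was counted once. That spread does not show whether the libraries came from separate animals. Replicate numbers follow accession order and pair nothing.

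Shared sequence is the percent of a gene's 31-base words found in another gene of GENCODE M21 (GRCm38), from which the coordinates come. A gene was summed with tested genes sharing at least 100 such words and 20% of either gene, and sums were compared with two-sided exact permutation tests. Many of these genes were named for differences in the same libraries, and a small p of their sum is not independent of that choice. Exact intervals and the floor of 3 counts cover counting error only. Promoters came from RefSeq (GRCm38.p6).

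The members and lists were chosen with earlier results of these data known. Some genes, such as Gfap, Osmr and Vim, stand in more than 1 list and count in each, so the lists are not separate observations. Named were, per direction, the 8 called genes of smallest p (mean of at least 1 CPM), the 8 of largest change (higher strain at 5 CPM or more), up to 5 per difference test, up to 6 called members of smallest p per described list, and defining markers. Ifit1, Isg15, Irf7, Mx2, H2-Q7, B2m, Cd74, C3, Foxj1, Irs2, Cd44 and Iigp1, and members named only by log2 change, were added after their values were seen. A few genes that the rule names are not reported here, but count in the lists. Alternatives were DESeq2 1.42.0, limma 3.58.1 on the deposited log2 values, median-ratio scaling, other filters, fits on fewer libraries, an additive sex term, 2 surrogate variables (sva 3.50.0), genes above 1% of counts left out, a threshold of 0.01 and each library left out. Added after seeing the data were fits without CAST control female 1, without CAST control females 1 and 3, without CAST HFHS male 1 and female 3, and with only genes of at most 5% shared sequence.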

Additional observations from a re-analysis of the deposited data

Results flagged for a closer look

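In 22 of 408 groups of 6 libraries (5.39%), 1 library stood apart from the other 5 by Dixon's criterion, where chance gives about 1 in 20. Groups with every library under 1 CPM were not tested but are counted in the 408, so the share among tested groups is above 5.39%. In NZO on HFHS, male 3 was highest for Firre at 131 CPM and Rpl17 at 9.20 CPM and lowest for Tmem119 at 12.4 CPM, female 3 was highest for Tuba1c at 4.01, Il33 at 54.3 and Aqp4 at 317 CPM, and male 2 for Cyp2f2 at 8.67 CPM. In CAST on HFHS, male 1 was highest for Hcrt at 180, Pmch at 593, Tac1 at 43.9, Npy5r at 9.39 and Hba-a1 at 10.9 CPM. CAST female 2 was highest for Esr1 at 51.0, Calcr at 52.2, Nr3c1 at 145 and Irf7 at 1.17 CPM and lowest for Trf at 108 CPM. CAST female 3 was highest for Prl at 13.9, Gh at 3.29, Agrp at 8.21 and H2-T22 at 15.1 CPM, and CAST female 1 for Socs2 at 8.22 CPM.

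The strain difference differed between the diets in 32 named genes by the test of the difference itself. The log2 change on HFHS less that on the control diet was positive for Hba-a2 (1.58), Hbb-bs (1.53), Hbb-bt (1.52), Alas2 (1.46), Npy (1.40), Naip5 (1.31), Gfap (1.19), C3 (1.18), Avp (1.11), Hist1h1c (1.10), Cd44 (0.89), Serpina3n (0.849), Trf (0.766), Sspn (0.76), Igfbp4 (0.727), Il33 (0.727), Mir22hg (0.686), C4b (0.542), Retsat (0.53), Shisa4 (0.527), Igfbp5 (0.512), H1f0 (0.505), Grb14 (0.431) and Aldoc (0.32). It was negative for Reln (-0.687), Tacr1 (-0.648), Hsph1 (-0.62), Cfp (-0.62), Gfra1 (-0.488), Kcnh1 (-0.423), Trp53bp1 (-0.348) and Ift172 (-0.258). Of these genes 9 were called in every setting run: Retsat, H1f0, Hist1h1c, Mir22hg, Sspn, Shisa4, Gfra1, Trp53bp1 and Tacr1. Of 36 settings run, Aldoc and C3 were called in 8, Cfp in 9, Cd44 in 12, Il33 in 13, Alas2 in 16, Igfbp5 in 22, Grb14 in 23, Ift172 in 29, Gfap and Hsph1 in 33, and Npy, Kcnh1 and Reln in 34. Of 35 settings run, Trf was called in 10, Avp in 12, C4b in 17, Naip5 in 22, Hbb-bt in 23, Igfbp4 in 26, and Serpina3n, Hbb-bs and Hba-a2 in 34. The strain difference differed between females and males on HFHS for Nbr1 (0.978).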

How the results depend on the processing

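The count of genes called on HFHS ran from 6416 at an adjusted p under 0.01 to 10052 in a fit of the compared libraries alone, and from 7960 to 8492 with 1 of the 12 HFHS libraries left out. It was 9440 without CAST control female 1 and 9674 without CAST control females 1 and 3, which this contrast does not compare. The count on the control diet ran from 7874 to 9440 with 1 of the 12 control libraries left out. Genes called at 2-fold ran from 2490 to 2535 with 1 HFHS library left out, and were 2634 without CAST control female 1 and 2749 without females 1 and 3, 144 with limma on the deposited log2 values, whose variance-stabilized scale compresses low levels, 1430 under the strict filter and 1656 among genes with at most 5% shared sequence, both of which test fewer genes. The diet difference was the least stable count. It was 880 with DESeq2, 229 without a filter, 221 in a fit of the compared libraries alone, 178 with an additive sex term, 45 with 2 surrogate variables, 49 without CAST control females 1 and 3, and 17 without CAST HFHS male 1 and female 3. With 1 library left out it ran from 78 to 2211 and moved by over 1.5 times in 18 of 24 cases, and the cause was not tested. The sex difference was 2 in a fit of the compared libraries alone, 3 with surrogate variables, 0 without CAST HFHS male 1 and female 3, and 0 to 1 with 1 library left out. Of 175 named genes called in the strain contrast, 171 kept that call in every setting run, 0 reversed, and Gal, Pdgfra, Vtn and Ttr lost it in at least 1. Of 32 named genes called in the diet difference, 23 lost that call in at least 1 setting. The sex difference of Nbr1 was lost in 4. Ranges for lists, here and above, leave out the fits with other filters, the threshold of 0.01 and the fit of genes with at most 5% shared sequence. Within the remaining settings, called members of the interferon list numbered 32 to 33 higher, of gliosis 14 to 16, of myelin 14 to 15 and of blood 8. Glucocorticoid-induced genes ran from 5 to 12 lower and cytosolic ribosomal genes from 6 to 19 higher. No paired analysis was possible because the labels give no replicate numbers that groups share. With 12.1% biological variation and 3 libraries per sex, differences under 1.5-fold were partly missed in simulated counts with few changed genes. The share missed in these data was not measured.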
